A study of Homo sapiens with 9 samples.

Results

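Replicate set 3 comprises 3 of the 9 RNA sequencing libraries of the series, 1 from each hairpin group, and was set against the 6 libraries of sets 1 and 2. All libraries come from the human bladder cancer line RT112, transduced with a control hairpin RNA (shNT) or with 1 of 2 hairpins (sh1, sh2) that target STAG2, a subunit of the cohesin ring that holds sister chromatids together. Per the labels' protocols, the cells of every group were grown in DMEM with heat-inactivated bovine serum and sodium pyruvate, transduced, and then placed in medium without serum. Set membership is the replicate number in the sample titles. The labels do not say whether a replicate number marks a separate culture, transduction, day or sequencing run, so the p-values below weigh differences against a spread among samples that may be technical in part.

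Set 3 was selected on its measured expression: sterol, stress and inflammatory genes were known to differ between it and the other sets. The set 3 difference of each gene (set 3 minus the mean of sets 1 and 2 within hairpin groups, on log2(FPKM + 1)) is therefore given as a description with its standard error and without a test. FPKM is fragments per kilobase of transcript, relative to the mapped fragments of the library. The tests below concern the difference between sets 1 and 2, the difference between hairpin groups in how set 3 stood apart, the comparison of silenced with control cells, and the spike-in share. Of 23278 gene rows, 11952 had a mean of at least 1 FPKM over the 9 libraries and were tested. Just outside that limit lay C5orf56 at 0.999 FPKM, and just inside it ZRANB3 and PSIP1 at 1.00 FPKM each.

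Genes of 3 regulatory systems of the cultured cell are described most closely. Sterol synthesis is driven by SREBP transcription factors, which are held in the endoplasmic reticulum while membrane cholesterol is plentiful and are released to the nucleus when it falls. ATF4 is a transcription factor translated preferentially when amino acids run short or unfolded proteins accumulate, and its targets make, import and charge amino acids. NF-kB factors switch on cytokines and chemokines such as IL1B and CCL20, together with inhibitors that end the response. Urothelial cells also express barrier genes such as uroplakins and keratins, which mark their luminal or basal state.

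Motifs of the stress factors were looked up in the 300 bases around the gene starts (250 before and 50 after, RefSeq promoters of GRCh38.p14), on both strands. The ATF4 composite site TGATGNAA, a motif added after the values had been seen, was present in 4 of 17 promoters of the ATF4 list (ATF3, ASNS, CHAC1, SLC3A2) and in 6 of 16 promoters of cytosolic aminoacyl-tRNA synthetases (AARS, CARS, IARS, MARS, NARS, TARS), against 1.60% of 9402 promoters of tested genes. Shown here are the stretches around it in ASNS (chr7:97872444-97872501, minus strand) and CHAC1 (chr15:40953237-40953294, plus strand), which stood among the highest genes of set 3, in AARS (chr16:70289661-70289718, minus strand), and in ATF3 (chr1:212565191-212565248, plus strand), which has the motif and did not stand higher. Capitals mark the site or its reverse complement.
ASNS: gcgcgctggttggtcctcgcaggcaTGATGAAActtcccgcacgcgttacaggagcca
CHAC1: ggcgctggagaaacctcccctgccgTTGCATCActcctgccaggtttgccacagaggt
AARS: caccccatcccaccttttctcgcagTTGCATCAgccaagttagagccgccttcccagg
ATF3: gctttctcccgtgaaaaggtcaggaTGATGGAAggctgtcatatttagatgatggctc

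The SREBP site TCACNCCAC was found in 0 of 16 promoters of sterol synthesis genes, in 0 of 11 of fatty acid synthesis genes and in 1 of 11 of the sterol sensing genes, against 1.04% of all promoters. The 1 match was in SREBF2, which encodes SREBP2 itself (chr22:41832947-41833005, plus strand). The ER stress element was present in 5 of 17 chaperone promoters (HSPA5, HSP90B1, XBP1, CALR, CRELD2) against 0.149% of all. It is shown for HSPA5 (chr9:125241366-125241434, minus strand), the main chaperone of the endoplasmic reticulum. A match describes these letters only and shows no binding.
SREBF2: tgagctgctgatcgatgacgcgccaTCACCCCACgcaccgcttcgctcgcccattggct
HSPA5: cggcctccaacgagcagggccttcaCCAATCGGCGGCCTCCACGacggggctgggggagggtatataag

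The depth of the libraries is not given in the values, which carry no counts. Summed FPKM was 397792 to 434433 in 8 libraries and 516464 in shNT replicate 1, in which the deviation of genes from their mean ran against transcript length (Spearman's rho −0.588 across 10721 genes, against −0.048 to 0.300 in the 8 others). Spike-in RNA took 1.35% ± 0.0810 (SD, n = 3) of the FPKM in set 3 and 1.59% ± 0.195 (SD, n = 6) in sets 1 and 2. The difference of −0.235 percentage points was not larger than the spread (exact permutation test within hairpin groups, two-sided, p = 0.148, where 0.037 is the smallest p that 27 arrangements allow). All 9 markers of urothelial carcinoma cells reached 1 FPKM and summed to 2394 to 3410 FPKM in set 3 and 2984 to 4014 in the others, while 1 of 13 immune, 3 of 10 fibroblast and 0 of 8 endothelial markers did. STAG2 stood at 27.7, 5.34 and 3.48 FPKM in shNT, sh1 and sh2 of set 3, the order used for all triplets of values below. It was 16.8, 3.76 and 3.41 FPKM in set 1 and 34.7, 4.13 and 4.93 FPKM in set 2, so the silenced libraries of each set were below its control.

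Set 3 stood apart from the other libraries in all 3 hairpin groups. In 361 genes (3.02% of those tested) all 3 libraries of set 3 lay above all 6 others, and in 436 genes (3.65%) below. The limma model placed 82 genes (0.686%) past an adjusted p of 0.05 on the higher side and 84 (0.703%) on the lower side, counts that the choice of set 3 had in view and that support nothing here. Together they came to 166, and to between 2 (without sh1 replicate 3) and 423 (without shNT replicate 1) with 1 library left out. The median difference over all genes was −0.013. With scaling to the spike-ins this median moved to 0.18 and the split became 186 higher and 23 lower, so directions below are relative to all genes. Between shNT and sh1 the per-gene set 3 differences had a Pearson's r of 0.43, between shNT and sh2 0.37 and between sh1 and sh2 0.49, across 11952 genes that are not independent and that share no library between the groups. For the same pairs r was 0.22, 0.18 and 0.49 in set 1 and 0.12, 0.40 and 0.49 in set 2. Such agreement between hairpin groups is thus not particular to set 3.

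The size of the set 3 difference varied with the hairpin group. Differences of at least 1 on the log2 scale in either direction were counted in 617 genes in shNT, 140 in sh1 and 90 in sh2. Among the genes whose set 3 libraries did not overlap the others, shNT had the largest difference in 203 of the 361 higher and in 295 of the 436 lower. After the hairpin group means were removed, the first component held 41.3% of the variance and placed set 3 at 34.7, 11.2 and 6.13, set 2 at −1.78, −1.09 and 3.77 and set 1 at −32.9, −10.1 and −9.90. On the second component set 1 stood at 18.3, −4.65 and −4.10 and set 2 at −26.6, −5.70 and −13.0. The shNT libraries of sets 1 and 2 thus also lay farther apart than those of sh1 or sh2. A wide spread in shNT is therefore not particular to set 3. Across 10721 genes the set 3 difference had a Spearman's rho with transcript length of 0.226 in shNT, 0.0729 in sh1 and −0.192 in sh2, and the part of length in the gene values was not tested.

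**Figure D1:**
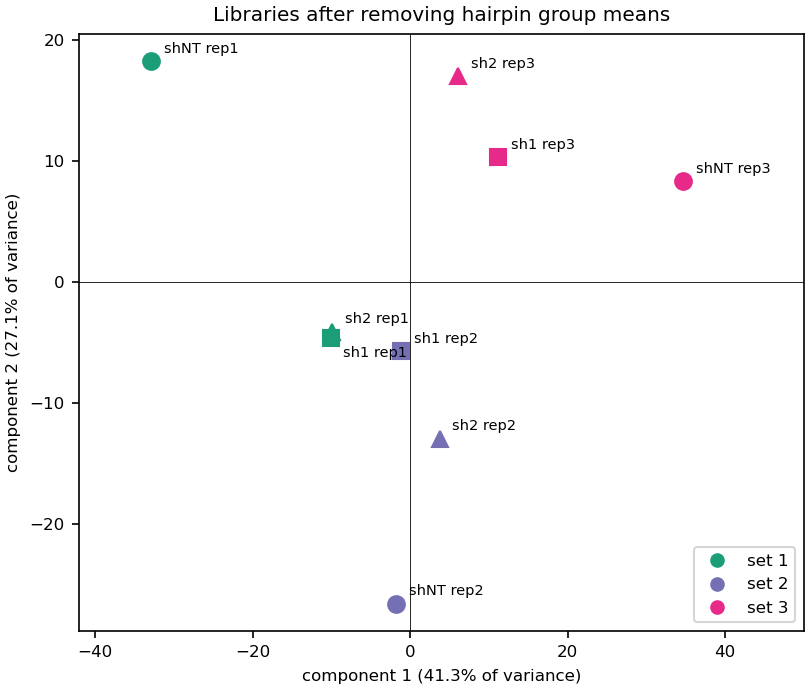
Position of the 9 libraries on the first 2 principal components of log2(FPKM + 1) after the mean of each hairpin group was removed, with the share of variance on each axis; 1 point is 1 library and its colour is the replicate set. The 3 libraries of set 3 lie between 6.13 and 34.7 on component 1, above the 6 others (−32.9 to 3.77).

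Sterol synthesis genes stood lower in set 3. Of the 21 enzymes, all of them tested, 20 had a negative difference, with a median difference of −0.93 against −0.013 over all genes. In 16 all 3 set 3 libraries lay below the 6 others (76.2%, against 3.65% of all genes). The medians within shNT, sh1 and sh2 were −1.46, −0.60 and −0.70. The difference was lowest in shNT for 18 of 21 enzymes, against 4707 of all 11952 genes. With the control hairpin libraries left out, 16 enzymes were again all below, against a background of 10.1% of genes. Between sets 1 and 2 the median difference of these genes (set 2 minus set 1) was 0.06. The decimal point had been lost in 6 set 3 values and 61 values of the other sets in this list, and was restored. By values that had kept their point alone, 12 of 17 enzymes had set 3 below the others and 0 above. Few libraries can remain on a side there, which makes non-overlap easier, and no share of all genes was taken under that rule. The count of 12 is therefore no support for the list.

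LSS, which cyclizes squalene epoxide into lanosterol, the first sterol, stood at 20.1, 50.2 and 54.0 FPKM in set 3 against 98.5 to 141 (median 104) in the 6 other libraries. Every set 3 library lay below every other library, and the difference was −1.50 (SE 0.27). HMGCS1, which makes HMG-CoA early in the pathway, was 26.6, 65.8 and 69.5 FPKM against 114 to 162 (median 134), a difference of −1.42 (SE 0.22). Its shNT library was the lowest of the 9, as it was for the other enzymes named in this paragraph. IDI1, the isopentenyl diphosphate isomerase, measured 26.4, 61.2 and 57.0 FPKM against 101 to 139 (median 129). MVD, which decarboxylates mevalonate diphosphate, measured 16.0, 26.4 and 27.1 FPKM against 47.1 to 103 (median 59.7). ACAT2, the acetoacetyl-CoA thiolase of the cytosol, measured 28.5, 48.3 and 59.5 FPKM against 94.7 to 152 (median 117). Their differences were −1.42 (SE 0.24), −1.41 (SE 0.27) and −1.41 (SE 0.23), and in each of the 3 the libraries of set 3 were below the lowest library of the other sets.

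The remaining enzymes ranged from −1.20 (MSMO1, the sterol C4 methyl oxidase) to 0.10. SQLE, the squalene epoxidase, was 36.5, 73.0 and 81.3 FPKM against 106 to 146 (median 133). DHCR7, the last enzyme on one branch to cholesterol, was 36.8, 60.2 and 59.8 FPKM against 82.8 to 119 (median 106). In both the shNT library was the lowest of the 9. The 5 enzymes whose libraries overlapped were PMVK, TM7SF2, LBR, NSDHL and HSD17B7. LBR, which is also a lamin B receptor of the nuclear envelope, was the 1 member with a positive value, at 51.2, 45.2 and 51.6 FPKM against 27.4 to 76.1.

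Genes that sense and import sterol were divided. Of 14 tested members, 9 had a negative difference, 3 lay entirely below (21.4%, against 3.65% of all genes) and the median was −0.28. Without sh2 replicate 3, 5 lay entirely below (35.7%, against 7.72% of all genes). INSIG1, which retains SREBP in the endoplasmic reticulum, stood at 33.7, 67.2 and 72.2 FPKM against 107 to 181 (median 132). Its difference was −1.28 (SE 0.17), with all set 3 libraries below the others. SREBF2 overlapped at 80.4, 80.4 and 98.2 FPKM against 55.6 to 99.2. SCAP, which escorts the factor to its processing proteases, overlapped at 26.0, 23.0 and 22.7 FPKM against 15.4 to 28.4. Among 6 tested genes of sterol efflux under LXR, 0 were beyond the other libraries in either direction, and ABCG1, a sterol exporter, overlapped at 6.20, 3.25 and 1.46 FPKM against 2.50 to 8.49.

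Fatty acid synthesis genes stood lower in part. Of 12 tested members 11 had a negative difference, 5 lay entirely below (41.7%, against 3.65% of all genes) and the median was −0.40. ACSS2, which makes acetyl-CoA from acetate, was 27.2, 40.1 and 41.9 FPKM against 56.2 to 82.6 (median 74.4). SCD, the stearoyl-CoA desaturase, was 218, 405 and 295 FPKM against 484 to 574 (median 539). FASN, the fatty acid synthase, was 56.9, 58.5 and 66.8 FPKM against 83.5 to 117 (median 98.6). ACLY (−0.62, SE 0.11), the cytosolic source of acetyl-CoA from citrate, and ACSL3 (−0.39, SE 0.12), which activates fatty acids, were the others of the 5. ACACA, whose product commits acetyl-CoA to fatty acids, overlapped at 14.8, 15.8 and 13.3 FPKM against 12.5 to 23.3.

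**Figure D2:**
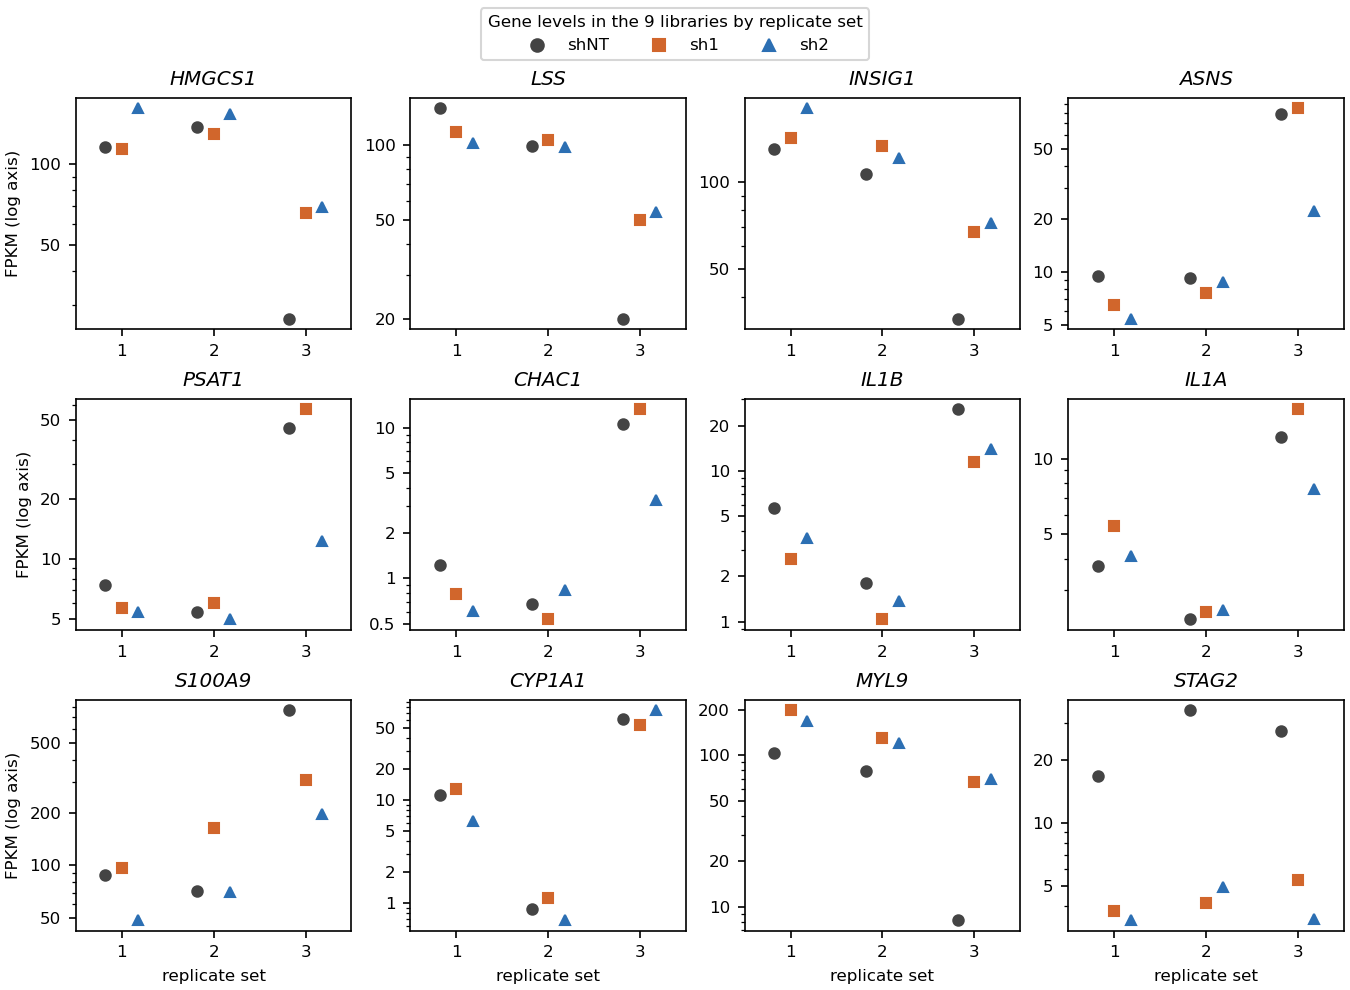
FPKM of single genes (1 panel each, log axis) in the 9 libraries by replicate set; each point is 1 library, and its colour and shape give the hairpin group. In set 3 HMGCS1 stood at 26.6 to 69.5 FPKM against 114 to 162 in the other sets, and ASNS at 22.2 to 84.4 against 5.41 to 9.40.

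ATF4 targets were higher in set 3, to an extent that varied between hairpin groups. Of 21 tested members 18 had a positive difference (85.7%, against 48.0% of all genes), and the median was 0.79. Entirely above the 6 others lay 5 members (23.8%, against 3.02% of all genes). Their medians were 0.66 in shNT, 1.15 in sh1 and 0.37 in sh2. For 16 of 21 members sh1 had the largest difference, and for 13 sh2 had the smallest. Over all 11952 genes these counts were 3163 and 3624. With the control hairpin libraries left out, 12 members lay entirely above, against a background of 8.32% of genes. The count of 5 was 13 without sh2 replicate 3 and 10 without shNT replicate 1, where 6.75% and 5.80% of all genes lay entirely above. CHAC1 passed the limit of 1 FPKM only through set 3, so its level there had to be higher.

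ASNS, the asparagine synthetase, stood at 78.2, 84.4 and 22.2 FPKM in set 3 against 5.41 to 9.40 (median 8.17) elsewhere. PSAT1, an aminotransferase of serine synthesis, stood at 45.5, 56.8 and 12.3 FPKM against 4.98 to 7.43 (median 5.54). CHAC1, which breaks down glutathione, stood at 10.6, 13.2 and 3.31 FPKM against 0.532 to 1.22 (median 0.727). In all 3 genes the shNT and sh1 libraries were far above the sh2 library of the same set, which still exceeded every library of sets 1 and 2. Their differences were 2.64 (SE 0.30), 2.28 (SE 0.31) and 2.34 (SE 0.29). PCK2, the mitochondrial PEP carboxykinase, was 34.5, 24.8 and 15.1 FPKM against 6.66 to 12.8 (median 10.3). VLDLR, a lipoprotein receptor that ATF4 can induce, was 4.06, 7.11 and 1.96 FPKM against 0.874 to 1.32 (median 1.01). These are the 5 members that did not overlap.

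The other 16 members overlapped. ATF4 itself was 431, 343 and 266 FPKM against 149.9 to 282 (median 206), so the sh2 library lay within the range of the other sets. PHGDH, the first enzyme of serine synthesis, was 208, 232 and 133 FPKM against 61.8 to 196 (median 81.5). MTHFD2, of mitochondrial folate metabolism, was 90.2, 117 and 57.4 FPKM against 37.2 to 58.3 (median 44.0). SLC7A5, which imports large neutral amino acids, was 170.3, 322 and 255 FPKM against 162 to 203 (median 168) and was highest in sh1. DDIT4, an inhibitor of mTORC1, was 164, 163 and 68.7 FPKM against 33.5 to 90.0 (median 53.4). The 3 members with a negative difference were ATF3 (−1.05), PPP1R15A (−0.37) and SLC7A11 (−0.051), and ATF3 spanned 20.8 to 449.6 FPKM in sets 1 and 2. DDIT3, which encodes the stress factor CHOP, overlapped at 19.8, 16.8 and 18.9 FPKM against 10.0 to 25.9.

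The 20 cytosolic aminoacyl-tRNA synthetases, which charge tRNAs with amino acids and were added as a list after the values had been seen, had a median of 0.56 (0.72, 0.69 and 0.27 by hairpin group). Of these 16 had a positive difference (80%, against 48.0% of all genes) and 9 lay entirely above (45%, against 3.02%). GARS, for glycine, was 117, 129.7 and 57.8 FPKM against 37.1 to 52.7 (median 44.2). MARS, for methionine, was 79.1, 89.1 and 48.8 FPKM against 30.5 to 39.4 (median 34.9). AARS, for alanine, was 85.9, 99.1 and 67.6 FPKM against 36.5 to 51.2 (median 46.0). As in ASNS, sh2 was the lowest of the 3 set 3 libraries in each of these. HARS (39.5, 36.5 and 35.3 FPKM against 34.7 to 46.3) and RARS (48.8, 46.4 and 43.2 FPKM against 43.7 to 58.3), for histidine and arginine, were among the 4 with a negative difference.

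The chaperone, heat shock and oxidative stress lists had medians near that of all genes. The 17 ER chaperone genes had a median of 0.03, with HSP90B1 (349.7, 371 and 362 FPKM against 215 to 322) and HERPUD1 (32.5, 24.7 and 25.9 FPKM against 12.4 to 24.2) entirely above and HSPA5 overlapping at 164, 194 and 154 FPKM against 110.4 to 173. HSP90B1 and HERPUD1 made up 11.8% of the list, against 3.02% of all genes entirely above. The 12 tested heat shock genes had a median of −0.02 and 0 beyond the others, with HSPA1B at 61.4, 55.7 and 53.8 FPKM against 48.2 to 71.8. Among 18 genes of the oxidative stress response the median was 0.07, and AKR1B10, an aldo-keto reductase, was the 1 gene entirely above (629, 634 and 567 FPKM against 313 to 491). NQO1 and HMOX1, classical targets of NRF2, overlapped at 531, 319.6 and 325 FPKM against 314 to 402 and 3.29, 5.13 and 5.82 FPKM against 4.83 to 17.4. Of 4 tested metallothionein and zinc genes, MT1X stood at 8.38, 11.4 and 13.9 FPKM against 1.58 to 7.37, a level that is uncertain because metallothionein genes are near-identical and can share reads.

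Of 20 tested hypoxia and glycolysis genes 1 lay entirely above (5%), and of 17 p53 targets 2 lay entirely above (11.8%) and 1 entirely below (5.88%), against 3.02% and 3.65% of all genes. Without sh1 replicate 2 the p53 targets entirely below were 4 (23.5%, against 3.97% of all genes). VEGFA, the endothelial growth factor, stood at 75.8, 43.7 and 19.7 FPKM against 8.90 to 12.7 (median 9.92), a difference of 1.88 (SE 0.25). The median of the hypoxia and glycolysis list was 0.01, and the other hypoxia targets overlapped, among them ADM (17.2, 24.6 and 30.2 FPKM against 14.7 to 41.1) and SLC2A1 (94.5, 139.6 and 106 FPKM against 84.6 to 139). GDF15, a secreted stress cytokine that both p53 and ATF4 can induce, stood at 28.9, 6.73 and 3.09 FPKM against 1.07 to 2.20 (median 1.44). Among the p53 targets TNFRSF10B, the TRAIL death receptor, also lay entirely above and TP53I3 entirely below, while CDKN1A overlapped at 58.1, 95.5 and 97.5 FPKM against 78.4 to 167 and the list median was −0.02.

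Cytokine genes were higher in set 3, most in the control hairpin. Only 7 of 19 listed NF-kB cytokines reached 1 FPKM on average. CCL20 did so through set 3 alone, so its level there had to be higher. Of the 12 that did not, CXCL1, CXCL2, CXCL3 and TNF were at 0 in all libraries. All 7 tested had a positive difference and 4, CCL20 among them, lay entirely above (57.1%, against 3.02% of all genes). The median was 1.23, with 1.74, 0.65 and 0.45 in shNT, sh1 and sh2. Without the shNT library of set 3 the median was 0.46. IL1B, the fever cytokine interleukin 1 beta, stood at 25.7, 11.6 and 14.1 FPKM against 1.04 to 5.67 (median 2.20). IL1A, its membrane-associated relative, stood at 12.2, 15.8 and 7.58 FPKM against 2.29 to 5.38 (median 3.11). The differences, 2.35 (SE 0.13) and 1.53 (SE 0.17), were positive in each hairpin group (2.63, 2.21 and 2.19 for IL1B). CCL20, a chemokine for immature dendritic cells, was 7.44, 0.680 and 0.430 FPKM against 0.0445 to 0.231 (median 0.116). LIF, a ligand of the gp130 receptor, was 4.54, 1.82 and 2.10 FPKM against 1.02 to 1.57 (median 1.27). IL8 was 12.9, 2.93 and 2.83 FPKM against 1.00 to 2.99 (median 1.47), so it stood out in shNT and overlapped in sh1 and sh2.

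The feedback genes and other targets of NF-kB also had their largest difference in shNT. Their median over 14 tested genes was 0.24, with 0.89 in shNT, 0.03 in sh1 and 0.10 in sh2, and it was 0.0052 without the shNT library of set 3. NFKBIA, the inhibitor that ends the response, was 52.4, 20.9 and 22.6 FPKM against 16.6 to 24.3 (median 21.4). TNFAIP2 was 136, 39.5 and 62.8 FPKM against 23.3 to 47.9 (median 38.9). BCL3, an IkB-like coactivator, was the 1 member entirely above (11.3, 6.40 and 7.02 FPKM against 4.37 to 5.65), 7.14% of the list against 3.02% of all genes. Without sh1 replicate 3, 4 members were (28.6%, against 5.96% of all genes). The factors NFKB1 (19.0, 13.1 and 12.4 FPKM against 11 to 17.5) and RELA (32.6, 31.0 and 34.6 FPKM against 32.0 to 38.2) overlapped.

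Acute phase and antimicrobial genes had a median of 0.63 over 8 of 15 listed genes, with 1.58, 0.31 and 0.34 by hairpin group. Of the 8, PI3 passed the limit of 1 FPKM only through set 3, so it had to be higher there. Without the shNT library of set 3 the median was 0.31. S100A9, a subunit of calprotectin, stood at 767, 306 and 196 FPKM against 48.7 to 164 (median 80.0). LCN2, which binds bacterial siderophores, was 66.3, 4.80 and 7.0 FPKM against 2.78 to 5.90 (median 4.66), high in shNT and within or just above the range elsewhere. CD68, a lysosomal glycoprotein used as a macrophage marker, was the 1 of 13 immune markers above the limit and measured 12.1, 6.10 and 7.23 FPKM against 2.09 to 4.97 (median 4.25). The summed level of the 13 markers was 7.79 to 13.0 FPKM in set 3 and 3.99 to 6.90 elsewhere, and CD68 made up most of it. MS4A1, a B cell marker, was at 0 in all libraries, and PTPRC, the marker common to leukocytes, was at most 0.266 FPKM. In bulk RNA, fewer cells of a type and less RNA per cell cannot be told apart.

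Interferon-stimulated genes and MHC class I genes overlapped between set 3 and the other sets when all 9 libraries were used. Among 20 tested interferon-stimulated genes the median was 0.06 and 0 lay beyond the others, with 2 entirely above without sh1 replicate 3 (10%, against 5.96% of all genes). ISG15, a ubiquitin-like protein, was 26.5, 22.3 and 25.3 FPKM against 22.8 to 50.6. OAS1, which senses double-stranded RNA, was high in the shNT library at 35.7 FPKM and overlapped in sh2. The 11 tested MHC class I genes had a median of 0.27 and 0 beyond the others, with B2M at 499, 357 and 376 FPKM against 305 to 388. HLA-F, in this list, passed the limit of 1 FPKM only through set 3, so its level there had to be higher. Without sh2 replicate 1, 3 of the 11 lay entirely above (27.3%, against 4.07% of all genes), and without sh1 replicate 3, 2 did (18.2%, against 5.96%). The 21 serum and immediate early genes, among them FOS (113, 296 and 421 FPKM against 86.8 to 705) and EGR1 (89.4, 89.1 and 151 FPKM against 13.7 to 189.6), had a median of 0.24 and 0 beyond, with 3 entirely above without sh2 replicate 3 (14.3%, against 6.75%).

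**Figure D3:**
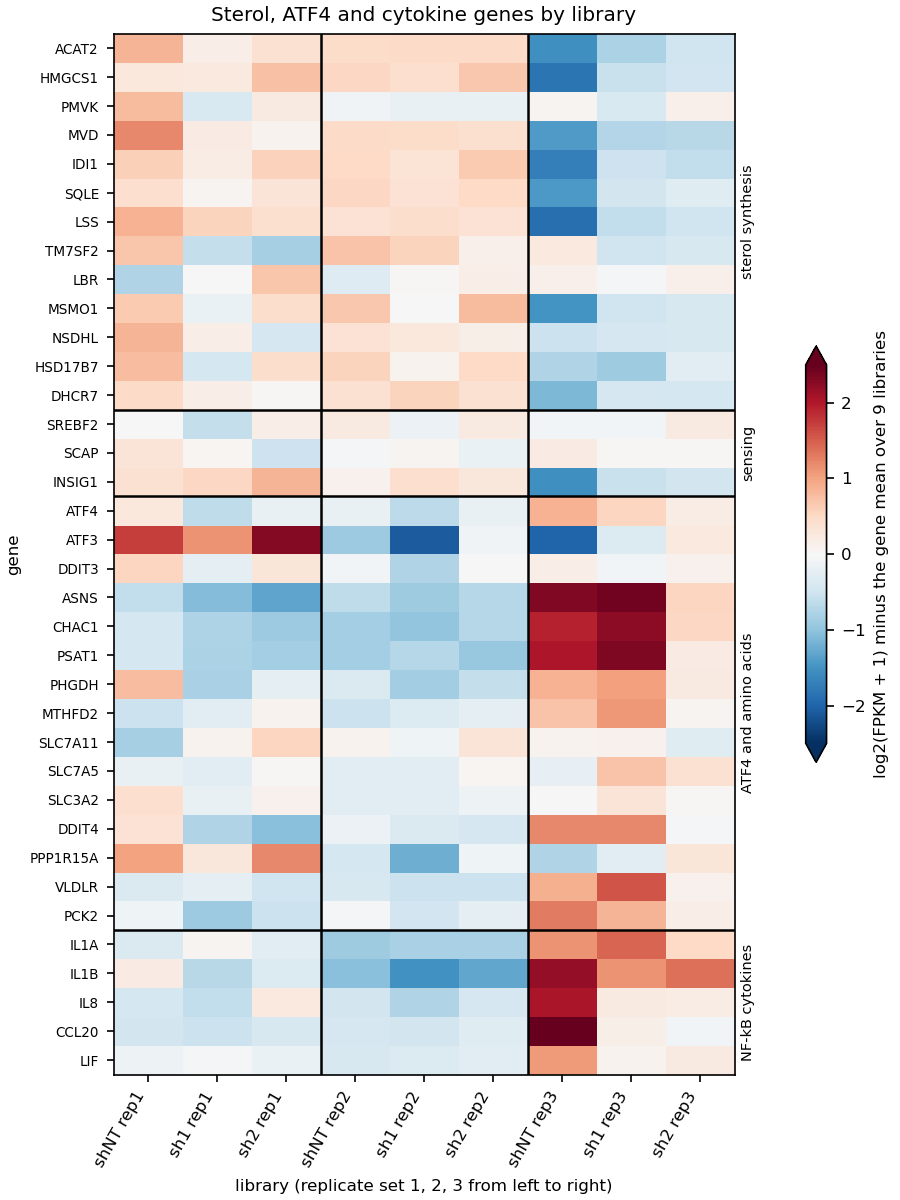
Levels of the sterol, ATF4 and cytokine genes named in the text (rows) in the 9 libraries (columns, replicate sets 1, 2 and 3 from left to right, hairpin groups within each set), as log2(FPKM + 1) minus the mean of the gene over the 9 libraries. The set 3 columns are below all others for LSS, HMGCS1, IDI1, MVD, ACAT2, SQLE, MSMO1 and DHCR7, and for ASNS, PSAT1 and CHAC1 they are higher in shNT and sh1 than in sh2.

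Of 15 tested targets of YAP and SRF, the coactivator and factor that read cell tension and actin, 14 had a negative difference and the median was −0.46. All 3 set 3 libraries lay entirely below the others in 4 of the 15 (26.7%, against 3.65% of all genes), and 0 of the 15 were past the limma threshold. MYL9, a myosin regulatory light chain, stood at 8.17, 66.7 and 69.9 FPKM against 78.9 to 198 (median 125). TPM1, a tropomyosin, stood at 18.6, 82.1 and 75.3 FPKM against 82.9 to 198 (median 120.4). In both the shNT library was the lowest of the 9 by a wide margin. ACTB, the beta actin often used as a reference gene, was 947, 1298 and 1234 FPKM against 1497 to 1977 (median 1722), and ACTG1 was 986, 1286 and 1213 FPKM against 1377 to 2079.7 (median 1726). TAGLN, an SRF target, was 2.19, 112 and 101 FPKM against 101 to 353 and overlapped in sh1 and sh2. The YAP targets CTGF (21.8, 23.2 and 37.9 FPKM against 23.5 to 48.0) and CYR61 (22.7, 56.5 and 72.3 FPKM against 38.0 to 126) overlapped.

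TUBA1A, an alpha tubulin, had the most negative difference of the genes that did not overlap, at 5.90, 34.4 and 43.3 FPKM against 78.6 to 141 (median 91.1), a difference of −2.14 (SE 0.37). TUBB3, the class III beta tubulin, stood at 6.13, 20.5 and 26.1 FPKM against 29.5 to 71.7 (median 43.8). Tubulin genes, a list added after the values had been seen, had a median of −0.44 over 11 tested genes, and −0.12 without the shNT library of set 3. Of the 11, 1 passed the limit of 1 FPKM only through sets 1 and 2, so it had to be lower in set 3. Reads of near-identical tubulin genes can be split by the counting, so the values of single members are uncertain. TUBE1, the divergent epsilon tubulin, was the 1 tubulin entirely above, at 6.38, 6.30 and 2.91 FPKM against 1.30 to 2.42.

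Mesenchymal and luminal genes had set 3 differences of opposite sign in different hairpin groups. VIM, the intermediate filament vimentin, stood at 0.201, 3.84 and 3.35 FPKM against 4.96 to 10.4 (median 6.08) and was the 1 mesenchymal gene of 16 entirely below. The list median was −0.27, made up of −1.09 in shNT, 0.33 in sh1 and −0.13 in sh2, and it was 0.00034 without the shNT library of set 3. MMP1 in this list and TRIM31 in the luminal list passed the limit of 1 FPKM only through set 3, so they had to be higher there. FN1, the matrix protein fibronectin, was 11.3, 450.0 and 207 FPKM against 79.9 to 510.0, and TNC, tenascin C, 0.244, 12.8 and 4.56 FPKM against 2.28 to 24.6. Both were lower in the shNT library than anywhere else and overlapped in sh1 and sh2. Fibroblast markers summed to 249.5 to 317 FPKM in set 3 and 123 to 416 elsewhere, and their part in these values was not tested. LUM made up most of that sum, at 310, 244 and 240 FPKM in set 3 against 115 to 408. COL1A2 was at 0 in all libraries, and PDGFRA and PDGFRB were at most 0.00636 and 0.00704 FPKM. ACTA2 was the 1 of 10 entirely above (4.77, 3.86 and 5.04 FPKM against 1.50 to 3.50). Luminal urothelial genes had a median of 0.21 (0.66 in shNT, −0.17 in sh1 and 0.14 in sh2), and 0.038 without the shNT library. UPK3B, a uroplakin of the urothelial plaque, was the 1 of 19 entirely above (46.6, 32.7 and 31.2 FPKM against 13.6 to 23.6). Basal and squamous genes had 0 of 16 beyond the others, but KRT5, the basal keratin, was 518 FPKM in the shNT library of set 3 against 1664 to 4149 in sets 1 and 2. KRT17 was 410.1 FPKM there against 2978 to 4417.

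**Figure D4:**
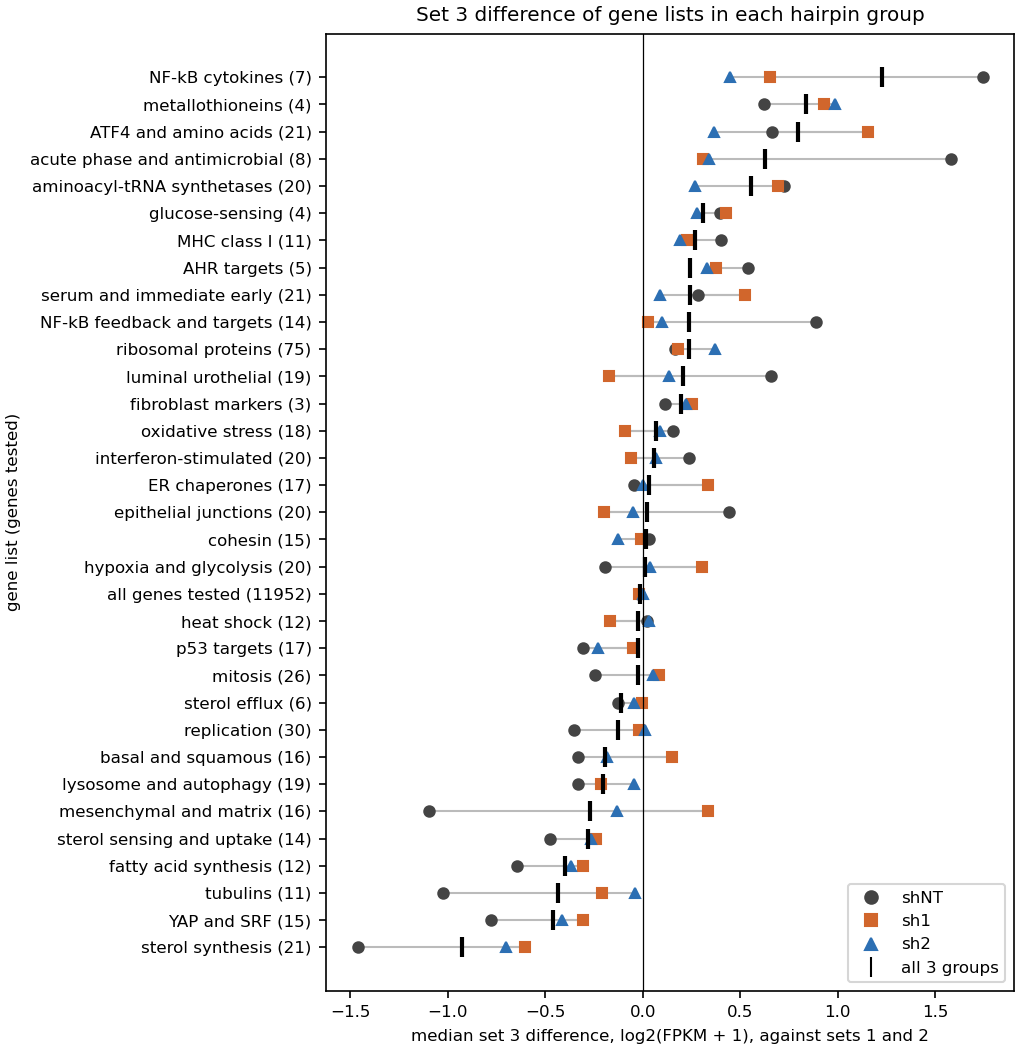
Median set 3 difference of each gene list, on log2(FPKM + 1), with 1 point for each hairpin group and a tick for the 3 groups together. The sterol synthesis point is at −1.46 in shNT, −0.60 in sh1 and −0.70 in sh2, whereas the mesenchymal points are at −1.09, 0.33 and −0.13.

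Several of the genes farthest from the other sets belong to none of these groups. CYP1A1, the detoxifying cytochrome P450 induced by the aryl hydrocarbon receptor, had the largest difference of all non-overlapping genes at 61.6, 54.0 and 75.4 FPKM against 0.684 to 12.8 (median 3.74), a difference of 3.83 (SE 0.20). It also had a wide range in the other sets, with 11.2, 12.8 and 6.37 FPKM in set 1 and 0.890, 1.12 and 0.684 FPKM in set 2. Of the other 4 tested targets of that receptor, a list added after the values had been seen, 0 lay entirely above, and TIPARP was 27.9, 37.0 and 35.6 FPKM against 19.0 to 61.4. All 5 tested targets had a positive difference, and the median was 0.24. Without sh1 replicate 3, 3 of the 5 lay entirely above (60%, against 5.96% of all genes). CYP1B1, a target below the limit of 1 FPKM, was 0.907, 0.604 and 1.01 FPKM against 0.0944 to 0.319. CYP1A2 and AHRR, also below that limit, overlapped. TXNIP, a thioredoxin inhibitor that follows glucose through MLXIP, stood at 332, 150.3 and 128 FPKM against 25.9 to 70.8 (median 56.4), whereas ARRDC4, which follows the same factor, overlapped at 14.7, 19.3 and 8.88 FPKM against 5.03 to 10.9. H19, an imprinted noncoding RNA, stood at 483, 366 and 182 FPKM against 44.9 to 150.5 (median 65.7). In CYP1A1, TXNIP and H19 all 3 libraries of set 3 were above all others.

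STC2, a secreted glycoprotein and known ATF4 target, was 23.4, 28.1 and 6.51 FPKM against 1.58 to 5.54 (median 2.91). CBS, of the transsulfuration of homocysteine, was 27.5, 28.7 and 13.0 FPKM against 3.13 to 7.16 (median 4.48). ADM2, an adrenomedullin-like peptide, was 6.51, 6.35 and 2.52 FPKM against 0.433 to 1.16 (median 0.905), and it passed the limit of 1 FPKM only through set 3, so it had to be higher there. In these 3, as in ASNS, the sh2 library was the lowest of set 3. IL20RB, a receptor chain for interleukins of the IL-20 family, was 63.0, 69.6 and 36.8 FPKM against 9.91 to 25.9 (median 17.1). PEMT, which makes phosphatidylcholine by methylation, was 24.5, 30.4 and 14.8 FPKM against 2.29 to 10.4 (median 7.04) and was positive to a like extent in the hairpin groups (1.65, 1.57 and 2.01).

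On the low side EDN1, the vasoconstrictor endothelin 1, was 2.98, 8.06 and 7.26 FPKM against 9.00 to 33.0 (median 15.1). PDGFB, a platelet-derived growth factor chain, was 3.16, 9.21 and 12.5 FPKM against 17.6 to 25.4 (median 19.7). TP53INP2, of autophagosome formation, was 1.36, 3.64 and 3.07 FPKM against 4.61 to 14.7 (median 12.9). In all 3 the shNT library of set 3 was the lowest of the 9. KPNA7, an importin alpha, was 0.331, 0.781 and 0.717 FPKM against 1.17 to 4.70 (median 3.18), and it passed the limit of 1 FPKM only through sets 1 and 2, so it had to be lower in set 3. The differences in shNT, sh1 and sh2 lay close together in KPNA7 (−1.21, −1.41 and −1.31) and apart in PDGFB (−2.39, −0.94 and −0.81).

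Of 30 replication genes, 1 lay entirely below the other libraries (3.33%, against 3.65% of all genes), and the median was −0.13. That gene was RRM2, the small subunit of ribonucleotide reductase (32.9, 34.4 and 38.1 FPKM against 42.2 to 67.4). Without sh2 replicate 3, 6 replication genes lay entirely below (20%, against 7.72% of all genes). The 26 mitosis genes had a median of −0.02 and 0 beyond, with 1 entirely below without sh2 replicate 3 (3.85%, against 7.72% of all genes).

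Ribosomal protein genes had a positive difference in 72 of 75, with a median of 0.23 and 0 beyond the others when all 9 libraries were used. Without shNT replicate 1, 48 of the 75 lay entirely above (64%, against 5.80% of all genes), and with the control hairpin libraries left out 49 did (65.3%, against 8.32%). Their share of all FPKM was 14.0% to 18.6% in set 3 and 10.4% to 18.7% elsewhere. Lysosome and autophagy genes had a median of −0.20, with MCOLN1, a lysosomal calcium channel, entirely below (6.93, 8.51 and 9.65 FPKM against 13.0 to 21.4). It was 1 of 2 entirely below among 19 (10.5%, against 3.65% of all genes), and 5 were without sh2 replicate 3 (26.3%, against 7.72% of all genes). The list median turned to 0.018 with scaling to the spike-ins. Of 15 genes of the cohesin list 1 lay entirely below, CTCF, the loop anchor (21.2, 21.2 and 22.8 FPKM against 25.5 to 28.3), a share of 6.67% against 3.65% of all genes. In this list, as in the hypoxia, oxidative stress, mesenchymal and luminal lists with 1 gene each beyond the others (5% to 6.67%), the share is near that of all genes and nothing is read from it about the list.

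The test of set 2 against set 1 used a contrast other than that on which set 3 was chosen. Setting aside the set known to differ can leave the 2 more alike sets together. The test is therefore not a neutral measure of how far replicate sets lie apart. With limma, 2 genes were higher in set 2 (0.0167%) and 7 lower (0.0586%) at an adjusted p of 0.05, and 1370 genes had an unadjusted p under 0.05. The 2 higher genes, AMTN and GABBR2, passed the limit of 1 FPKM only through set 2. They had to be higher there, so the count on the higher side supports nothing. The total of 9 was 0 without sh1 replicate 1, sh1 replicate 2 or sh2 replicate 2, 1 without sh2 replicate 1, 5 without shNT replicate 2 and 86 without shNT replicate 3. A difference of at least 1 on the log2 scale was counted in 97 genes for set 2 minus set 1 and in 121 for set 3 against the other sets. These counts are not on a par, because a difference from the mean of 2 sets has the smaller standard error (0.200 against 0.231 for CYP1A1). CYP1A1 was lower in set 2 than in set 1, with a difference of −2.51 (SE 0.23, limma adjusted p = 0.0144), in all 3 hairpin groups. OSR2, a zinc finger factor, stood at 22.7, 24.9 and 35.5 FPKM in set 1 and at 5.21, 6.62 and 4.69 FPKM in set 2, a difference of −2.13 (SE 0.19, limma adjusted p = 0.0144). KLF4, a factor of epithelial differentiation, was 23.9, 27.2 and 36.9 FPKM in set 1 and 5.81, 4.83 and 7.37 FPKM in set 2 (−2.11, SE 0.23, limma adjusted p = 0.0162).

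AMTN, an enamel matrix protein, was 3.53, 5.19 and 4.36 FPKM in set 2 and 0.378, 0.376 and 0.393 FPKM in set 1, a difference of 1.94 (SE 0.20). It passed the limit of 1 FPKM only through set 2 (set means 0.382, 4.36 and 0.621 FPKM), so it had to be higher there and its call is no support. EEF1A2, a translation elongation factor isoform, was lower in set 2, with a difference of −1.54 (SE 0.16), and both had a limma adjusted p of 0.0144. In set 3, OSR2 was 4.37, 7.47 and 7.02 FPKM and EEF1A2 65.6, 89.3 and 83.2 FPKM, so OSR2 was near set 2 and EEF1A2 near set 1. GABBR2, RND3 and TRIB1 were also called, of which GABBR2, like AMTN, passed the limit only through set 2 (set means 0.619, 3.47 and 0.928 FPKM).

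Whether set 3 stood apart to the same extent with and without STAG2 silencing was tested as an interaction, which the choice of set 3 did not use. With limma, 0 genes (0%) passed an adjusted p of 0.05 for silenced minus control, with 579 at an unadjusted p under 0.05, and 0 genes (0%) for sh2 minus sh1, with 76. The fit has 3 residual degrees of freedom, and with scaling to the spike-ins the numbers of genes called were 74 and 6. It has no term for set 2 against set 1, so shared differences between those sets enter its spread. The 579 and 76 genes were 4.84% and 0.636% of those tested. That 0 genes were called therefore does not show that set 3 stood apart equally in the hairpin groups. The genes with the smallest p for silenced minus control included ELF3, CCL20, TRIM31 and MMP2, with adjusted p-values of 0.136 to 0.148.

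ELF3, an epithelial transcription factor that interleukin 1 can induce, was 128, 18.5 and 30.8 FPKM in set 3 and 18.2 to 33.8 elsewhere, an interaction of −2.90 (SE 0.29). TRIM31, a ubiquitin ligase, was 34.7, 1.06 and 1.29 FPKM against 0.144 to 1.32, with an interaction of −4.26 (SE 0.50), and passed the limit of 1 FPKM only through set 3. Both were far above all other libraries in the shNT library of set 3 alone. MMP2, a gelatinase, was 12.9, 68.3 and 65.9 FPKM against 49.0 to 74.4, lowest in that library. The interaction of the 21 sterol synthesis genes had a median of 0.85. Of them 11 were at an unadjusted p under 0.05, against 4.84% of all genes, and the smallest adjusted p was 0.38. The larger difference in shNT was thus not past the threshold for any of these genes.

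For sh2 minus sh1 the genes with the smallest p included PSAT1 (−1.98, SE 0.34), CBS (−1.86, SE 0.33) and CHAC1 (−1.78, SE 0.38). All 3 had an adjusted p of 1.00 with limma. The other 2 of the 5 were MUTED, a subunit of lysosome-related organelle biogenesis (3.97, 2.98 and 0.343 FPKM against 1.14 to 5.75), and HIF1A-AS2, an antisense transcript of HIF1A whose reads can be told from those of its partner only if strand was used in the counting.

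**Figure D5:**
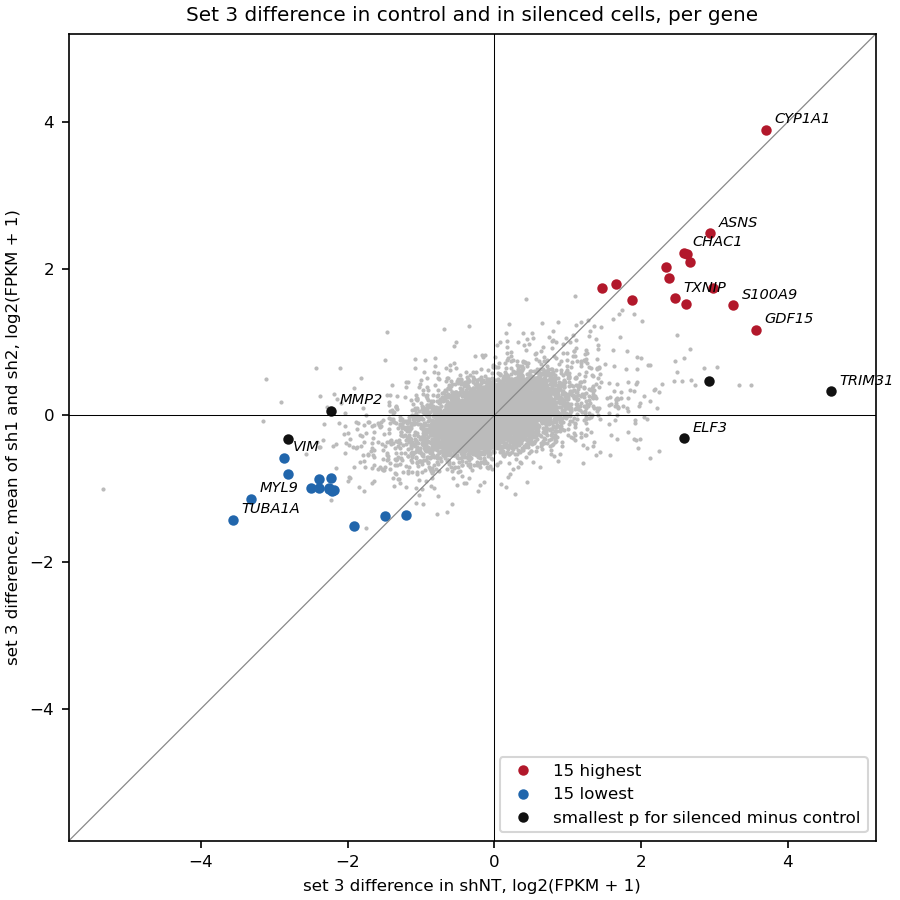
Set 3 difference of each tested gene in the control hairpin (horizontal axis) against the mean difference in sh1 and sh2 (vertical axis), both on log2(FPKM + 1); each point is 1 gene and colours mark the 15 highest, the 15 lowest and genes with the smallest interaction p. The horizontal spread is wider than the vertical, with 617 genes at 1 or more in either direction in shNT against 140 in sh1 and 90 in sh2.

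The comparison of silenced with control cells was also fitted with each replicate set left out. With all 9 libraries STAG2 was lower in silenced cells, with a difference of −2.36 (SE 0.214, limma adjusted p = 0.00797), and was the 1 gene called (0.00837% of genes). With the replicate number as a block, which the pairing of the libraries calls for, STAG2 had a limma adjusted p of 0.00466 and was again the 1 gene called, with 2056 genes at an unadjusted p under 0.05 against 1504 without the block.

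With the block, the STAG2 difference was −2.56 (SE 0.170, limma adjusted p = 0.0731) with set 1 left out, −2.19 (SE 0.190, adjusted p = 0.0340) with set 2 left out and −2.33 (SE 0.210, adjusted p = 0.0875) with set 3 left out. The genes called were 0, 5 and 0, and those at an unadjusted p under 0.05 were 1099, 2336 and 1117. Without the block the limma adjusted p of STAG2 was 0.0747, 0.229 and 0.554 with set 1, 2 and 3 left out, and 0 genes were called in each case, with 594, 1754 and 875 at an unadjusted p under 0.05. Each of these fits rests on 6 libraries, and the call of STAG2 was lost with set 1 left out as well as with set 3 left out. With only shNT replicate 3 left out 0 genes were called, and with only shNT replicate 2 left out 3 were.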

How the data were processed

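RNA of 9 RT112 libraries was sequenced from poly(A)+ RNA with a stranded kit and ERCC spike-ins, per the labels' protocols. The authors deposited 1 table of FPKM values for 23370 rows, 92 of them spike-ins. Reads were mapped to hg19 (the submitters' processing notes name this build); aligner, counter and annotation are not given in the sources.

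Of 10270 FPKM values without a decimal point, 10255 were divided by 1000 where that reading lay nearer the gene's other values (4.88% of values, smallest margin 1.09 on the log10 scale), and 15 were kept. For 1329 of them no value of the row had kept a point. Restored values make up 5004 of the 5567 values from 100 to 1000 FPKM. The 27 names that had become dates are not named.

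Genes with a mean of at least 1 FPKM were fitted with limma 3.58.1 in R 4.3.3 on log2(FPKM + 1), with a variance trend, two-sided tests and Benjamini-Hochberg adjustment at 0.05. This scale understates changes of low genes. The set contrasts came from 1 model of hairpin group and set over 9 libraries. The interactions came from a model of hairpin group by set 3, and silenced minus control from hairpin group alone. Permutation tests used scipy 1.17.1 under Python 3.11.15. Same-numbered libraries deviated together from their group means (correlations across genes 0.118 to 0.491 in every pair), so the replicate numbers from the titles were taken to pair the libraries. Set 3, the 32 gene lists and the tests were chosen with earlier results of these data known, and 3 further lists after the values were seen. Named were the 15 highest and 15 lowest genes whose set 3 libraries did not overlap the others, members of the lists, the 5 leading genes of each tested contrast, and STAG2. Some genes that this rule names are not reported here. The fits were tested on simulated data. Alternatives covered the pseudocount, filter, scaling, restored values, weights, each library left out and the block.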

Additional observations from a re-analysis of the deposited data

Results flagged for a closer look

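In the 6 libraries of sets 1 and 2, 1 library lay far from the other 5 in 4 of 75 gene groups and genes examined, and chance alone flags about 1 group in 20. MVD stood at 103 FPKM in shNT replicate 1. Ribosomal protein genes were on average 0.71 above their mean on log2(FPKM + 1) in the same library, and interferon-stimulated genes 0.44 above theirs in sh2 replicate 1. CD68, the 1 immune marker tested, was at −0.97 in sh1 replicate 1.

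The set 3 difference of 5 lists had one sign in shNT and the opposite sign in both silenced groups, a difference between groups that was not tested for the lists. The median in shNT was −0.047 for ER chaperones, −0.19 for hypoxia and glycolysis genes, −0.25 for mitosis genes, 0.44 for epithelial junction genes and 0.031 for cohesin genes.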

How the results depend on the processing

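The 32 list medians kept their sign in 652 of 701 alternatives. The 30 named genes kept the sign of their set 3 difference in 639 of 639, which is no support. They were chosen for non-overlap and 1 sign in all hairpin groups, so leaving out a library or changing the pseudocount or block could not turn it. The number of genes past the threshold for set 3, 166, was 9 without a filter on low values, 107 with a mean of at least 5 FPKM, 68 when genes with any restored value were dropped, 1363 with array weights, 19 without the hairpin block, 5 against set 1 only, 46 against set 2 only and 77 with sets 1 and 2 as 1 level, an alternative chosen after seeing the data. With 1 library left out it lay between 2 (without sh1 replicate 3) and 423 (without shNT replicate 1). Genes whose set 3 libraries did not overlap the others, 797, numbered 2198 with the control hairpin libraries left out and 882 to 1730 with 1 library left out, both chosen after seeing the data. Fewer libraries make such non-overlap easier.

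For set 2 minus set 1 the count of 9 became 3 without a filter, 14 with median-of-ratios scaling, 15 with quantile normalization, 333 with array weights and 0 to 86 with 1 library left out. The interactions, 0 genes each, gave 58 for silenced minus control and 41 for sh2 minus sh1 without a filter, and 74 and 6 with spike-in scaling. They could not be fitted without a library of set 3. Silenced minus control, 1 gene, gave 0 with set 1, set 2 or set 3 left out and 0 to 3 with 1 library left out. With the replicate block, which the pairing of the libraries calls for, it gave 1 gene again, and 0, 5 and 0 with the block and set 1, 2 or 3 left out. Leaving out set 1 or set 2, and the block with a set left out, were chosen after seeing the data.

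The sterol synthesis median of −0.93 was −0.092 when such genes were dropped, which keeps 3 of 21 members, and the ATF4 median of 0.79 was 1.29, with 7 members kept. The NF-kB cytokine median of 1.23 ranged from 0.46 (without shNT replicate 3) to 1.70 with 1 library left out. The sterol efflux median of −0.11 turned to 0.0015 with a mean of at least 5 FPKM, 0.094 with spike-in scaling and 0.073 against set 2 only. The lysosome median turned to 0.018 with spike-in scaling, and the fibroblast marker median of 0.19 to −0.41 against set 2 only. Where no construction is named, the cause was not tested. Depth is unknown, so counting error could not be set beside the spread between libraries.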
